A study of Mus musculus with 50 samples.

Results

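The effect of losing NRF2 on developing oligodendrocytes was examined at the 24 h time point, in 10 of the 50 bulk RNA-seq libraries of the series. All libraries labelled 24 h were taken: 6 from Nrf2 -/- cells and 4 from wild-type (WT) cells, of which 3 Nrf2 -/- and 2 WT libraries came from untreated cells, and 3 Nrf2 -/- and 2 WT libraries from cells given 200 U/ml IFN-γ, a cytokine of T cells and natural killer cells. Oligodendrocyte precursors of both genotypes (C57BL/6 background) had been immunopanned from cortices of pups 6 days old, passaged 2 times and left to differentiate for 12 to 14 h before treatment, per the labels. A tissue tag names the whole brain, and the labels give neither the sex of the pups nor whether replicates were separate cultures, so the p-values speak of library-to-library spread alone, part of which could be technical. The Nrf2 -/- genotype is a homozygous null per the labels, and which part of the gene is missing is not given in the sources used here. Genotypes were compared with treatment as a covariate, 6 against 4 libraries.

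NRF2, encoded by Nfe2l2, is a transcription factor that KEAP1 holds in the cytoplasm and hands to the proteasome in unstressed cells. Oxidants and electrophiles release it, and with small MAF partners it then binds antioxidant response elements near genes for glutathione synthesis, thioredoxin reduction, quinone reduction, heme breakdown and NADPH supply. Oligodendrocytes are rich in iron and make large amounts of membrane lipid while they mature, and they are known as a cell type sensitive to oxidative stress.

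The libraries held between 34385467 and 54657205 counted reads, and 14865 genes were tested. Values are CPM, a gene's counts as a share of its library's total, scaled for composition by TMM. Oligodendrocyte markers fitted the label of the cells: the myelin gene Cnp was abundant in every library, with the lineage factor Sox10 at 610 to 905 CPM and Olig2 at 322 to 532 CPM. Of markers for other cells, the astrocyte gene Gfap held 2.47 to 8.00 CPM and the neuronal gene Rbfox3 at most 0.346 CPM. Other members of those lists were higher. The summed CPM was 475 to 722 for astrocyte markers, 1478 to 1757 for neuron markers and 412 to 556 for Schwann and ependymal markers, as described further on. The microglial genes Aif1, Tmem119 and C1qa were at 0 in all 10 libraries, Cx3cr1 was at 0 in all but 1 (0.028 CPM), and P2ry12 held 4.23 to 7.43 CPM. In bulk RNA, fewer cells of a type and less RNA per cell cannot be told apart.

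Xist and the Y chromosome divided the Nrf2 -/- libraries but not the WT ones. Xist, the RNA of the silenced X chromosome, stood at 488, 347 and 4.23 CPM in untreated Nrf2 -/- cells and at 661, 413 and 5.28 CPM in Nrf2 -/- cells with IFN-γ, against 0.112 and 4.10 CPM in untreated WT cells and 3.88 and 2.14 CPM in WT cells with IFN-γ. The summed CPM of Y-linked transcripts ran the other way, at 0.319 to 6.5 in the 4 high-Xist libraries, 354 and 429 in the other 2 Nrf2 -/- libraries and 279 to 459 in WT libraries. Thus only replicate 3 of each Nrf2 -/- group shared the Xist and Y pattern of the WT cells. Over the whole series 20 of 30 Nrf2 -/- and 1 of 20 WT libraries were high in Xist. Genotype at 24 h is therefore partly confounded with this difference, and values were also computed from low-Xist libraries alone (2 Nrf2 -/- against 4 WT) and from the 4 high-Xist Nrf2 -/- libraries against WT. Kdm6a, an X-linked gene that escapes silencing, followed Xist, with 127, 123 and 80.4 CPM in untreated Nrf2 -/- cells and 114, 121 and 78.9 CPM in Nrf2 -/- cells with IFN-γ, against 85.0 and 91.3 CPM in untreated and 77.1 and 73.8 CPM in IFN-γ-treated WT cells.

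Some values recurred across treatments: the low-Xist Nrf2 -/- library was replicate 3 in both, and Gfap and Scn3a, given further on, were higher in WT replicate 1 than in WT replicate 2 in both. The labels do not say whether libraries of the 2 treatments share cultures or animals. The fit treats all 10 as independent, and if they are not, its p-values, that of Tshz2 included, are too small.

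Another 2 libraries stood apart. Untreated Nrf2 -/- replicate 2 held 38.7 CPM of the interferon-induced GTPase gene Gbp2, where the other untreated Nrf2 -/- libraries held 0.153 and 0.113 CPM and both untreated WT libraries 0. WT IFN-γ replicate 1 held 5229 CPM of summed histone transcripts, against 2949 to 3103 CPM in the IFN-γ-treated Nrf2 -/- libraries and 3533 CPM in WT IFN-γ replicate 2. It also held 85.2 CPM of the cytokine-signalling inhibitor gene Socs1, against 33 to 37.9 CPM in IFN-γ-treated Nrf2 -/- cells and 38.5 CPM in the other WT library. Gbp2 and the histones were chosen for mention after their values were seen.

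Nfe2l2 itself was nearly absent from every Nrf2 -/- library at 24 h. Nfe2l2 (ENSMUSG00000015839.6, GRCm38 chromosome 2, 75675513 to 75704641, minus strand) stood at 0.306, 0.636 and 0.310 CPM in untreated and 0.259, 0.196 and 0.224 CPM in IFN-γ-treated Nrf2 -/- cells, against 27.1 and 27 CPM in untreated and 23.5 and 20.3 CPM in IFN-γ-treated WT cells. The genotypes did not overlap, and each Nrf2 -/- library held only 8 to 23 reads of the gene where WT libraries held 768 to 965. Nfe2l2 fell by a log2 fold change of −6.25 ± 0.15 SE (95% interval −6.56 to −5.94, edgeR BH-adjusted p = 6.55e-13), with −5.99 ± 0.19 in untreated and −6.55 ± 0.20 in IFN-γ-treated cells. The difference between the 2 treatments, −0.56 ± 0.35, did not pass (edgeR BH-adjusted p = 0.812). In the estimated counts of its more abundant transcript, ENSMUST00000102672.4, Nrf2 -/- libraries held 36 to 55 and WT libraries 787 to 982, again without overlap.

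WT cells carried the gene at 24 h at an intermediate level of their time course. In a scaling shared by all hours, untreated WT cells averaged 8.11, 7.66, 27.8 and 66.6 CPM of Nfe2l2 at 1, 8, 24 and 48 h, and IFN-γ-treated WT cells averaged 8.23, 17.5, 22.6 and 33.7 CPM (2 libraries each). Among Nrf2 -/- libraries of the other hours, 1 labelled untreated 8 h held 7.65 CPM of Nfe2l2, where its group averaged 2.68 CPM, so values over other hours rest on a library that goes against its label. The log2 difference between genotypes averaged over 1, 8 and 48 h was −5.19 ± 0.31, and 24 h minus that mean gave −1.08 (95% interval −2.71 to 0.55, edgeR BH-adjusted p = 1.00).

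Beyond Nfe2l2, 1 gene passed the threshold. Tshz2, a zinc-finger homeobox transcription factor gene (GRCm38 chromosome 2, 169633013 to 170071816), held 18.3, 18.8 and 19.97 CPM in untreated and 110, 112 and 99.5 CPM in IFN-γ-treated Nrf2 -/- cells, against 14.8 and 14.3 CPM in untreated and 81.8 and 83.8 CPM in IFN-γ-treated WT cells. Within each treatment every Nrf2 -/- library lay above every WT library. Tshz2 rose by 0.38 ± 0.05 log2 (95% interval 0.26 to 0.49, a 1.30-fold difference, edgeR BH-adjusted p = 0.0320), with 0.38 in untreated and 0.37 in IFN-γ-treated cells.

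The call of Tshz2 depended on single libraries and on the tool. Leaving out any single library gave log2 folds of 0.36 to 0.40, and 9 of these 10 fits ended the call (edgeR BH-adjusted p from 0.0558 to 0.227), the exception being the fit without Nrf2 -/- IFN-γ replicate 3. Low-Xist libraries alone gave 0.35 ± 0.08 (edgeR BH-adjusted p = 0.510), and high-Xist Nrf2 -/- libraries against WT gave 0.39 ± 0.06 (0.00942). Over all alternatives for Tshz2 the adjusted p ran from 3.63e-06 with DESeq2 to 0.912 with edgeR on the kallisto estimated counts, where its log2 fold was 0.66. At other hours Tshz2 differed by 0.14 ± 0.04 (edgeR BH-adjusted p = 0.103), and 24 h exceeded that mean by 0.24 (95% interval 0.09 to 0.39, unadjusted p = 0.00213, adjusted 0.821).

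**Figure D1:**
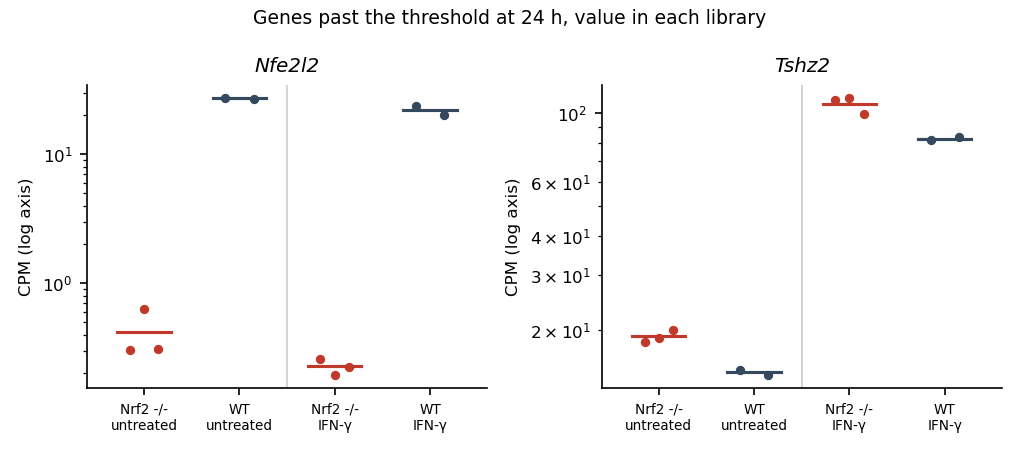
CPM of Nfe2l2 and Tshz2 in each library at 24 h (log axes); points are libraries, bars the mean of a group, red Nrf2 -/- and dark blue WT. Nfe2l2 stands at or below 0.636 CPM in all 6 Nrf2 -/- libraries and at 20.3 CPM or more in WT, and Tshz2 is higher in Nrf2 -/- cells within both treatments.

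These 2 genes are 0.0135% of the genes tested, 1 higher and 1 lower. At an unadjusted p below 0.05 there were 795 genes (5.35%), 388 higher (2.61%) and 407 lower (2.74%) in Nrf2 -/- cells. Genes whose genotypes did not overlap in either treatment numbered 155 higher (1.04%) and 173 lower (1.16%). These shares are the ones to set beside the list counts below that come from all 10 libraries. The comparison was a fine one for expressed genes, provided that the libraries are independent. Of 10355 genes with a mean of at least 5 CPM the median SE was 0.0666 log2. For 10100 of them (97.5%) the 95% interval lay within 1.5-fold of no difference. The median log2 fold over all genes was −0.00. DESeq2 called 8 genes: Nfe2l2, Tshz2, Xist and 5 genes close to Nfe2l2 that are described further on.

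NRF2 target genes were described first by their promoters and then by their levels. In RefSeq promoter windows (GRCm38.p6, 250 bases before to 50 after a gene's start), the core of the antioxidant response element, TGACNNNGC on either strand, occurred in 12 of 30 tested targets with a window (40%), in 1793 of 10740 tested genes with a window (16.7%) and in 4071 of all 32851 windows (12.4%). The window of Nfe2l2 held it and that of Tshz2 did not. A match is a run of letters and not a measured site. Short stretches from 4 targets are shown, with the element in capitals, because these genes supply the glutathione, thioredoxin, peroxiredoxin and NADPH steps whose levels follow.

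Gclm, chr3:122245408-122245446, minus strand: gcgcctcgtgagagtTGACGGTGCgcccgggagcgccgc

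Txnrd1, chr10:82859099-82859137, minus strand: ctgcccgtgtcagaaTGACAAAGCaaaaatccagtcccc

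Prdx1, chr4:116685451-116685489, minus strand: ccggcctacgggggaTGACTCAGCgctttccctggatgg

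G6pdx, chrX:74428914-74428952, plus strand: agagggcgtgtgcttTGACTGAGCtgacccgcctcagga

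NRF2 targets did not differ between genotypes past the threshold. Of 43 listed targets 34 were tested and 0 were called by edgeR, 0 higher and 3 lower at an unadjusted p below 0.05 (5.35% of all genes), and DESeq2 called 0 as well. Their median log2 fold was −0.04, beside −0.00 over all genes, with 12 positive and 22 negative values. The median was 0.03 in untreated and −0.07 in IFN-γ-treated cells, −0.01 in low-Xist libraries alone, and between −0.05 and −0.01 when 1 library was left out. For 27 of the 34 the 95% interval lay within 1.5-fold of no difference. The other 9 targets were too low to test: Gsta1, Gsta2 and Gstm3 at 0 in every library and Gsta4, Gstm2, Gstm6, Akr1b8, Aox1 and Osgin1 at no more than 0.255 CPM.

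Glutathione synthesis starts with glutamate-cysteine ligase, whose catalytic subunit is encoded by Gclc and whose modifier subunit by Gclm. Gclc stood at 36.2, 37.9 and 37.1 CPM in untreated and 34.2, 33.7 and 34.8 CPM in IFN-γ-treated Nrf2 -/- cells, against 38.2 and 40.1 CPM in untreated and 32.4 and 35.8 CPM in IFN-γ-treated WT cells. Gclm, with the promoter element printed above, stood at 46.1, 45.5 and 40.3 CPM untreated and 42.6, 41.7 and 42 CPM with IFN-γ in Nrf2 -/- cells, against 39.5 and 44 CPM untreated and 38.8 and 39.5 CPM with IFN-γ in WT cells. Gclc was slightly lower without overlap in untreated Nrf2 -/- cells and Gclm slightly higher without overlap in those with IFN-γ, and both overlapped in the other treatment. The log2 folds were −0.04 (95% interval −0.15 to 0.07) for Gclc and 0.09 (−0.03 to 0.21) for Gclm, with an edgeR BH-adjusted p of 0.932 and 0.877. Slc7a11, the cystine importer that feeds this pathway, was under 1 CPM throughout, at 0.0919, 0.111 and 0.141 CPM untreated and 0.744, 0.736 and 0.895 CPM with IFN-γ in Nrf2 -/- cells, against 0.0843 and 0.129 CPM untreated and 0.737 and 0.476 CPM with IFN-γ in WT cells. Its log2 fold of 0.33 has a wide interval, −0.29 to 0.94.

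Thioredoxin and peroxiredoxin genes were among the abundant targets. Txnrd1, thioredoxin reductase, held 241, 245 and 243 CPM untreated and 340, 351 and 346 CPM with IFN-γ in Nrf2 -/- cells, against 246 and 228 CPM untreated and 359 and 375 CPM with IFN-γ in WT cells. Srxn1, the sulfiredoxin that restores oxidized peroxiredoxins, held 16.9, 16.4 and 15 CPM untreated and 14.9, 14.8 and 15.6 CPM with IFN-γ in Nrf2 -/- cells, against 16.5 and 14.3 CPM untreated and 14.6 and 16.6 CPM with IFN-γ in WT cells. The genotypes overlapped for both genes in untreated cells; with IFN-γ, Txnrd1 was lower in each of the 3 Nrf2 -/- libraries than in either WT library. The log2 folds were −0.03 (95% interval −0.12 to 0.07) for Txnrd1 and 0.01 (−0.15 to 0.16) for Srxn1, and Prdx1, a peroxiredoxin, gave −0.12 (−0.31 to 0.07).

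The classical reporters of NRF2 activity were low in these cells. Nqo1, a quinone reductase, held 0.276, 0.166 and 0.310 CPM untreated and 0.294, 0.270 and 0.280 CPM with IFN-γ in Nrf2 -/- cells, against 0.309 and 0.0968 CPM untreated and 0.227 and 0.265 CPM with IFN-γ in WT cells. These values come from 3 to 17 reads per library, and with a log2 fold of 0.22 (95% interval −0.54 to 0.98) a difference was not detectable at this depth. Hmox1, the heme oxygenase, was better measured, at 7.87, 7.52 and 6.60 CPM untreated and 13.3, 8.24 and 9.81 CPM with IFN-γ in Nrf2 -/- cells, against 5.79 and 5.55 CPM untreated and 11.1 and 10.7 CPM with IFN-γ in WT cells. In untreated cells all Nrf2 -/- libraries exceeded both WT libraries, while with IFN-γ they overlapped. The log2 fold was 0.14 (−0.14 to 0.42, edgeR BH-adjusted p = 0.899), with 0.37 untreated and −0.05 with IFN-γ.

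The targets with the smallest unadjusted p were an iron store, an autophagy receptor and a pentose phosphate enzyme. Sqstm1 (p62), which also binds KEAP1, held 223, 222 and 227 CPM untreated and 155, 164 and 189 CPM with IFN-γ in Nrf2 -/- cells, against 232 and 232 CPM untreated and 222 and 189 CPM with IFN-γ in WT cells. Its log2 fold was −0.16 (95% interval −0.31 to −0.02, edgeR BH-adjusted p = 0.877), and −0.07 in low-Xist libraries. With all libraries the ferritin light chain gene Ftl1 had −0.15 ± 0.06, the heavy chain gene Fth1 −0.13 ± 0.07 and the transaldolase gene Taldo1 −0.17 ± 0.07. In low-Xist libraries Ftl1 had −0.13, Fth1 −0.01 and Taldo1 −0.06. High-Xist Nrf2 -/- libraries against WT gave −0.16, −0.19 and −0.23 for the same genes. Of the NADPH-supplying enzymes, G6pdx had 0.02, Pgd 0.00 and Me1 −0.10; these, Prdx1 and Fth1 were named for their role.

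**Figure D2:**
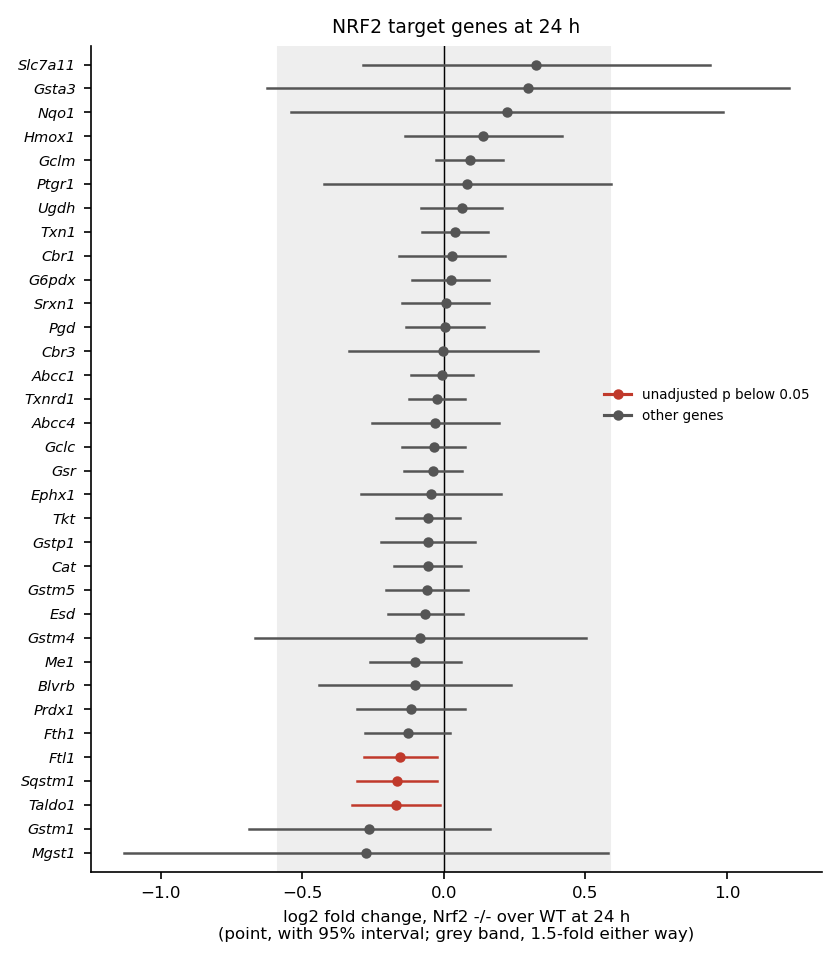
Log2 fold change of the 34 tested NRF2 targets, Nrf2 -/- over WT at 24 h with treatment as covariate (points), with 95% intervals (bars); the grey band marks 1.5-fold in either direction. Every point lies between −0.28 and 0.33, and the 3 red genes, Ftl1, Sqstm1 and Taldo1, have an unadjusted p below 0.05 but do not pass the adjusted threshold.

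Among 16 tested regulators and partners of NRF2, Nfe2l2 alone was called, and the median log2 fold was 0.00. Keap1, the inhibitor, held 61.5, 61.8 and 60.8 CPM untreated and 61.4, 64.3 and 68.8 CPM with IFN-γ in Nrf2 -/- cells, against 68.3 and 63.4 CPM untreated and 80.9 and 73.6 CPM with IFN-γ in WT cells. It was lower without overlap in both treatments at −0.18 ± 0.06 (unadjusted p = 0.00547, edgeR BH-adjusted p = 0.877), with −0.14 in low-Xist libraries; it was named after its values were seen. Nfe2l1, the related NRF1 factor, had 0.05 ± 0.06. Glutathione and thiol genes outside the target list had a median of −0.04 in 31 tested members (0 called, 0 higher and 2 lower unadjusted), with −0.21 ± 0.07 for Gsto1, a glutathione transferase, and −0.56 ± 0.25 for Cth, the cystathionine lyase that makes cysteine (edgeR BH-adjusted p = 0.877 each).

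Most myelin genes had negative and most precursor genes positive log2 folds, but edgeR called no member and the medians depended on which Nrf2 -/- libraries entered. Of 34 tested structural myelin and mature oligodendrocyte genes 0 were called by edgeR and 1, Ermn, by DESeq2. At an unadjusted p below 0.05, 0 were higher and 4 lower, beside 2.61% higher and 2.74% lower of all genes. Of the 34 values 30 were negative, with a median of −0.14. Mbp, myelin basic protein, held 1598, 1849 and 1802 CPM untreated and 281, 365 and 443 CPM with IFN-γ in Nrf2 -/- cells, against 2294 and 1870 CPM untreated and 518 and 358 CPM with IFN-γ in WT cells. Every untreated Nrf2 -/- library lay below both untreated WT libraries, the genotypes overlapped with IFN-γ, and the log2 fold of Mbp was −0.26 ± 0.14. That log2 fold was −0.09 ± 0.16 in low-Xist libraries and −0.35 ± 0.14 in high-Xist Nrf2 -/- libraries against WT. Car2, carbonic anhydrase, had −0.34 ± 0.15 (edgeR BH-adjusted p = 0.877). Mbp was named for its role, outside the naming rule.

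Of 32 tested precursor and committed-stage genes 0 were called by edgeR or DESeq2. At an unadjusted p below 0.05, 5 were higher (2.61% of all genes) and 0 lower (2.74% of all genes). Positive values numbered 23, with a median of 0.10. Sox5, a transcription factor of precursors, held 4.44, 4.64 and 4.79 CPM untreated and 2.49, 3.04 and 2.82 CPM with IFN-γ in Nrf2 -/- cells, against 3.71 and 3.36 CPM untreated and 2.07 and 1.85 CPM with IFN-γ in WT cells. It did not overlap in either treatment, at 0.44 ± 0.12 (edgeR BH-adjusted p = 0.877; 0.48 in low-Xist libraries), while over 1, 8 and 48 h it had −0.02 ± 0.05. Cspg4, the NG2 proteoglycan of precursors, held 50.2, 43 and 47.9 CPM untreated and 147, 108 and 104 CPM with IFN-γ in Nrf2 -/- cells, against 33.4 and 33.9 CPM untreated and 108 and 118 CPM with IFN-γ in WT cells (0.27 ± 0.11, named for its role). Pdgfra, the growth factor receptor of precursors, had 0.17 ± 0.09 (0.07 in low-Xist libraries), and Brinp3 had 0.14 ± 0.05 (0.14 in low-Xist libraries). Of 33 lineage transcription factors 0 were called, with 1 higher, 2 lower and a median of −0.01. In low-Xist libraries their median was −0.10, with 24 negative values and 1 higher and 6 lower unadjusted (3.79% of all genes in either direction). High-Xist Nrf2 -/- libraries against WT gave −0.06, with 4 higher and 1 lower (8.30% of all genes). Hey1, a Notch target, had −0.24 ± 0.07 with all libraries.

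The myelin and precursor medians also differed with the Xist level of the Nrf2 -/- libraries. In low-Xist libraries alone the myelin median was −0.05 (1 lower unadjusted) and the precursor median 0.01 (3 higher, 1 lower), whereas high-Xist Nrf2 -/- libraries against WT gave −0.20 (11 lower) and 0.15 (11 higher). Over all genes 3.79% had an unadjusted p below 0.05 in the low-Xist fit and 8.30% in the high-Xist fit. The counts of the 2 fits therefore have unlike backgrounds and are not directly comparable. The part of the Xist difference in these values was not tested. Leaving out 1 library at a time gave myelin medians of −0.18 to −0.07 and precursor medians of 0.05 to 0.14. Sphingolipid and galactolipid genes of myelin had a median of −0.02 in 21 members, with 1 lower, the sulfatide-making Gal3st1 (−0.22 ± 0.09).

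**Figure D3:**
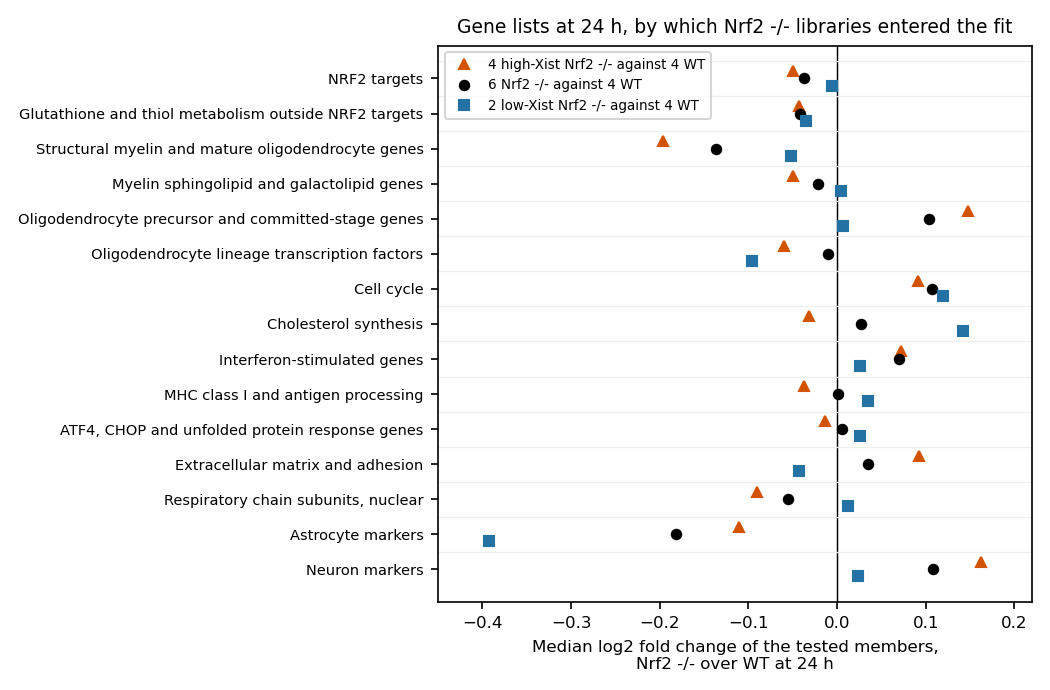
Median log2 fold change of the tested members of 15 gene lists, Nrf2 -/- over WT at 24 h, with all 6 Nrf2 -/- libraries (black circles), the 4 high-Xist ones (orange triangles) or the 2 low-Xist ones (blue squares), each against 4 WT libraries. The myelin and precursor medians move from −0.20 and 0.15 to −0.05 and 0.01 between high-Xist and low-Xist Nrf2 -/- libraries, while the cell-cycle median stays between 0.09 and 0.12.

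Most cell-cycle genes had small positive log2 folds, and none passed the adjusted threshold. Of 38 tested genes 33 had positive values, 7 were higher (2.61% of all genes) and 0 lower at an unadjusted p below 0.05, 0 were higher without overlap in both treatments (1.04% of all genes), and edgeR and DESeq2 called 0, with a median of 0.11 (0.12 in low-Xist and 0.09 in high-Xist libraries, 0.07 to 0.18 with 1 library left out). Bub1, a kinase of the spindle checkpoint, held 23.1, 20.8 and 23.9 CPM untreated and 74.0, 67.5 and 63.2 CPM with IFN-γ in Nrf2 -/- cells, against 18.9 and 18.5 CPM untreated and 54.4 and 64.9 CPM with IFN-γ in WT cells. Its untreated values did not overlap and those with IFN-γ did, at 0.23 ± 0.07 (edgeR BH-adjusted p = 0.877). The checkpoint kinase gene Bub1b had 0.25 ± 0.07 and the cyclin gene Ccnd1 0.15 ± 0.06, and the summed CPM of the list ran from 1418 to 1617 in untreated Nrf2 -/- cells, against 1336 to 1426 in untreated WT cells.

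Cholesterol synthesis, which supplies a major lipid of myelin, showed 0 of 24 tested genes called and 0 at an unadjusted p below 0.05, with a median of 0.03. In low-Xist libraries the median was 0.14 with 8 genes higher unadjusted, and in high-Xist ones −0.03. In that low-Xist fit 3.79% of all genes had an unadjusted p below 0.05 in either direction. Stard4, a sterol carrier, had 0.18 ± 0.09 and the isomerase gene Idi1 0.10 ± 0.07. Nuclear respiratory chain subunits had a median of −0.06 (0 called, 0 higher and 2 lower of 30), with 26 negative values, and 0.01 in low-Xist libraries. Cox5b, of cytochrome oxidase, had −0.15 ± 0.06 and Sdhb, of succinate dehydrogenase, −0.11 ± 0.05. Mitochondrially encoded transcripts had a median of 0.08 (0 of 11 called), −0.10 in low-Xist libraries.

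No interferon or antigen-presentation gene passed the threshold between genotypes at 24 h. Irf1, an interferon-induced transcription factor, held 692, 723 and 724 CPM with IFN-γ in Nrf2 -/- cells, against 726 and 761 CPM in WT cells. Of 42 tested interferon-stimulated genes 0 were called, 0 higher and 1 lower at an unadjusted p below 0.05, with a median of 0.07; the lower gene, Socs1, rests on its 85.2 CPM in WT IFN-γ replicate 1. MHC class I and antigen-processing genes had a median of 0.00 (0 of 20 called, 0 at an unadjusted p below 0.05) and MHC class II genes 0.01 (0 of 7, 0 unadjusted). Irf1 was named for its role.

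In untreated cells alone the medians were 0.32 for interferon-stimulated genes and 0.32 for MHC class I genes. Untreated Nrf2 -/- replicate 2 moved with these values: besides Gbp2 it held 65.4 CPM of the GTPase gene Irgm1, against 46.6 and 49.5 CPM in the other untreated Nrf2 -/- libraries and 42.1 and 45.3 CPM in WT, and 17.5 CPM of B2m, the MHC light chain, against 11.6 and 13.1 CPM there and 10.8 and 11.1 CPM in WT. The summed CPM of interferon-stimulated genes ran from 306 to 435 in untreated Nrf2 -/- libraries, against 290 to 300 in untreated WT libraries. For Irgm1, B2m and this sum, the other untreated Nrf2 -/- libraries also lay above both untreated WT libraries. Over both treatments the median of interferon-stimulated genes was 0.07 with all libraries and −0.01 without untreated Nrf2 -/- replicate 2. For MHC class I it was 0.00 and −0.06. Untreated medians without that library are not given here, so its part in the 0.32 was not tested.

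Stress, death and matrix lists had medians near that of all genes, with 0 members called in each by edgeR and 1, the matrix list's Itga6, by DESeq2. ATF4, CHOP and unfolded-protein genes had a median of 0.01 (1 higher of 37 unadjusted, the ER chaperone gene Hsp90b1 at 0.14 ± 0.06). p53 and cell-death genes had 0.01 (1 higher, 2 lower of 18), with −0.27 ± 0.11 for Bbc3 (PUMA) and −0.21 ± 0.08 for Phlda3. Immediate early genes had 0.06 (0 of 18 unadjusted; −0.08 in low-Xist libraries) and glycolysis genes −0.00 (0 of 27). Extracellular matrix and adhesion genes had 0.04 (−0.04 in low-Xist libraries; 2 higher, 1 lower of 28), the higher ones Col4a2, a basement-membrane collagen (0.20 ± 0.08), and the integrin gene Itgav (0.20 ± 0.08).

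Markers of microglia and vessels were sparse, while neuron and astrocyte lists held measurable RNA. Of 20 microglial markers 4 were tested (0 unadjusted), of 20 endothelial, mural and fibroblast markers 6 (1 higher), and of 10 Schwann and ependymal markers 4 (1 higher). Astrocyte markers had a median of −0.18 in 16 tested members (0 higher, 1 lower, Apoe at −0.52 ± 0.21). In low-Xist libraries the median was −0.39 with 7 lower unadjusted, where 3.79% of all genes had such a p in either direction. Their summed CPM was 673 to 722 untreated and 475 to 573 with IFN-γ in Nrf2 -/- cells, against 675 to 712 untreated and 562 to 566 with IFN-γ in WT cells. Gfap held 3.28, 7.13 and 3.86 CPM untreated and 2.47, 5.71 and 3.8 CPM with IFN-γ in Nrf2 -/- cells, against 6.52 and 3.36 CPM untreated and 8 and 3.49 CPM with IFN-γ in WT cells, so the genotypes overlapped in both treatments. Neuron markers had 0.11 in 16 tested members (2 higher, Dcx at 0.18 ± 0.07 and Syt1 at 0.23 ± 0.11), and their summed CPM was 1601 to 1722 untreated and 1714 to 1757 with IFN-γ in Nrf2 -/- cells, against 1478 to 1702 untreated and 1618 to 1672 with IFN-γ in WT cells. In low-Xist libraries the neuron median was 0.02 (0 of 15 unadjusted), with Dcx at 0.06 ± 0.08 and Syt1 at 0.02 ± 0.13. High-Xist Nrf2 -/- libraries against WT gave a median of 0.16, with Dcx at 0.24 and Syt1 at 0.32. Schwann and ependymal markers summed to 503 to 543 CPM untreated and 412 to 442 CPM with IFN-γ in Nrf2 -/- cells, against 503 to 548 CPM untreated and 441 to 556 CPM with IFN-γ in WT cells. The part of these markers' sources in the results was not tested.

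The loss of NRF2 was also compared within each treatment. In untreated cells 1 gene passed, Nfe2l2 (0.00673% of genes; 662 or 4.45% unadjusted, 426 higher and 236 lower), and in IFN-γ-treated cells again only Nfe2l2 (0.00673%; 1269 or 8.54% unadjusted, 569 higher and 700 lower). The difference in genotype effect between IFN-γ and no treatment was called for 0 genes by edgeR (0%; 911 or 6.13% unadjusted, smallest BH-adjusted p = 0.634) and for 0 by DESeq2 (806 unadjusted). The IFN-γ comparison turned on 1 library: without WT IFN-γ replicate 2, which leaves WT IFN-γ replicate 1 alone and assumes that it varies like the other groups, edgeR called 100 genes in IFN-γ (98 lower in Nrf2 -/- cells) and 45 in the difference between treatments. The interaction genes of smallest p, named after their values were seen, included the histone gene Hist1h4b, at 38.2, 37.4 and 42.6 CPM untreated and 72.8, 80.6 and 71.2 CPM with IFN-γ in Nrf2 -/- cells, against 34.4 and 30.01 CPM untreated and 109 and 90.5 CPM with IFN-γ in WT cells. Its genotype effect was 0.29 untreated and −0.41 with IFN-γ, a difference of −0.71 ± 0.14 (edgeR BH-adjusted p = 0.634). The cytokine gene Mif differed by −0.52 ± 0.11 and the POU factor gene Pou3f1 by −0.71 ± 0.15 in the same way.

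Genes near Nfe2l2 on chromosome 2 held more small p-values than the rest of the genome. Of 181 tested genes within 20 Mb of Nfe2l2, leaving out Nfe2l2 itself, 0 were called by edgeR and 5 by DESeq2 (Itga6, Scn3a, Ccdc173, Ermn and B3galt1), and 24 (13.3%) had an unadjusted p below 0.05, against 4.73% on the rest of chromosome 2, 5.28% on the other chromosomes and 8.66% on the X chromosome. Of the 24 genes with the smallest p at 24 h 8 lay in this window, and 11 of its 181 genes (6.08%) did not overlap between genotypes, beside 2.21% of all genes. By distance the share was 7.27% of 55 genes within 5 Mb, 21.4% of 42 genes at 5 to 10 Mb, 13.1% of 84 genes at 10 to 20 Mb and 0.806% of 124 genes at 20 to 40 Mb. The window kept a higher share than the whole genome with each library left out (9.44% to 17.1% in the window, 2.89% to 11% of all genes), in low-Xist libraries (9.44% against 3.79%) and in high-Xist ones (15.5% against 8.30%). That genotype differences gather near Nfe2l2 was known from averages over hours of this series that include these libraries, so it is described here and not offered as new support.

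**Figure D4:**
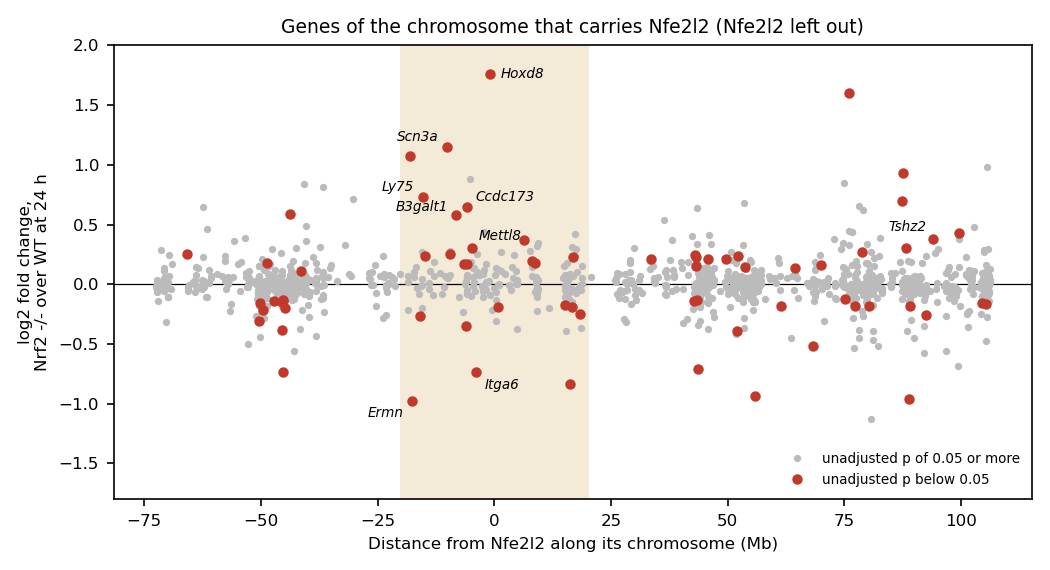
Log2 fold change, Nrf2 -/- over WT at 24 h, of the tested genes on the chromosome of Nfe2l2, against distance from Nfe2l2 in Mb; red points have an unadjusted p below 0.05, and the shaded band spans 20 Mb on either side. Within the band 24 of 181 genes are red, among them Scn3a, Ly75 and Ccdc173 above the line and Ermn and Itga6 below it.

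Genes of this window with the smallest p are given in the order of their roles; all were named after their values were seen, except Itga6 and Ermn, which the lists hold. Itga6 encodes integrin α6, a laminin receptor, and lies 3.82 Mb from Nfe2l2. It held 3.22, 4.23 and 3.08 CPM untreated and 1.02, 1.18 and 1.45 CPM with IFN-γ in Nrf2 -/- cells, against 5.54 and 5.65 CPM untreated and 2.27 and 2.01 CPM with IFN-γ in WT cells. All Nrf2 -/- libraries lay below all WT libraries within each treatment, at −0.74 ± 0.14 (edgeR BH-adjusted p = 0.308). Ermn encodes ermin, a cytoskeletal protein of the myelin sheath, and lies 17.6 Mb away. It held 0.919, 1.69 and 1.38 CPM untreated and 0.623, 0.883 and 0.839 CPM with IFN-γ in Nrf2 -/- cells, against 2.67 and 3.19 CPM untreated and 1.53 and 1.14 CPM with IFN-γ in WT cells. It too did not overlap, at −0.98 ± 0.20 (edgeR BH-adjusted p = 0.400). In low-Xist libraries alone Itga6 had −0.73 and Ermn −0.89, and DESeq2 called both (BH-adjusted p = 0.00416 and 0.0135, over a range up to 1.00 across alternatives).

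Scn3a encodes a voltage-gated sodium channel and lies 10.1 Mb from Nfe2l2. It held 42.5, 41.5 and 40.8 CPM untreated and 45.5, 42.3 and 35.2 CPM with IFN-γ in Nrf2 -/- cells, against 24.9 and 11.7 CPM untreated and 24.4 and 13.6 CPM with IFN-γ in WT cells. The 6 Nrf2 -/- libraries were close together and above all WT libraries, while in both WT groups replicate 1 was well above replicate 2. The log2 fold was 1.15 ± 0.23 (95% interval 0.61 to 1.69, edgeR BH-adjusted p = 0.868), and it was called by DESeq2 (0.00416, with 0.00416 to 1.00 over all alternatives).

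Ccdc173, 5.89 Mb away, held 3.09, 3.46 and 3.69 CPM untreated and 3.41, 3.97 and 3.58 CPM with IFN-γ in Nrf2 -/- cells, against 2.33 and 2.13 CPM untreated and 2.44 and 2.12 CPM with IFN-γ in WT cells. It was higher without overlap, at 0.65 ± 0.12 (edgeR BH-adjusted p = 0.308; DESeq2 0.00773, with a range up to 1.00 over alternatives). Mettl8, a methyltransferase of mitochondrial transfer RNA, 4.62 Mb away, held 19.3, 19.8 and 16.1 CPM untreated and 16.3, 17.9 and 18.3 CPM with IFN-γ in Nrf2 -/- cells, against 14.4 and 13.4 CPM untreated and 14.6 and 15.6 CPM with IFN-γ in WT cells. It was higher in every library of both treatments, by 0.30 ± 0.08 (edgeR BH-adjusted p = 0.868). Ly75, an endocytic receptor, 15.3 Mb away, held 0.888, 0.774 and 0.649 CPM untreated and 5.08, 4.88 and 4.5 CPM with IFN-γ in Nrf2 -/- cells, against 0.562 and 0.516 CPM untreated and 3.54 and 1.93 CPM with IFN-γ in WT cells, a log2 fold of 0.73 ± 0.19 (edgeR BH-adjusted p = 0.868). B3galt1, a galactosyltransferase gene 7.55 Mb away, had 0.28 untreated and 0.83 with IFN-γ, and its difference between treatments was 0.54 ± 0.22 (edgeR BH-adjusted p = 0.779).

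**Figure D5:**
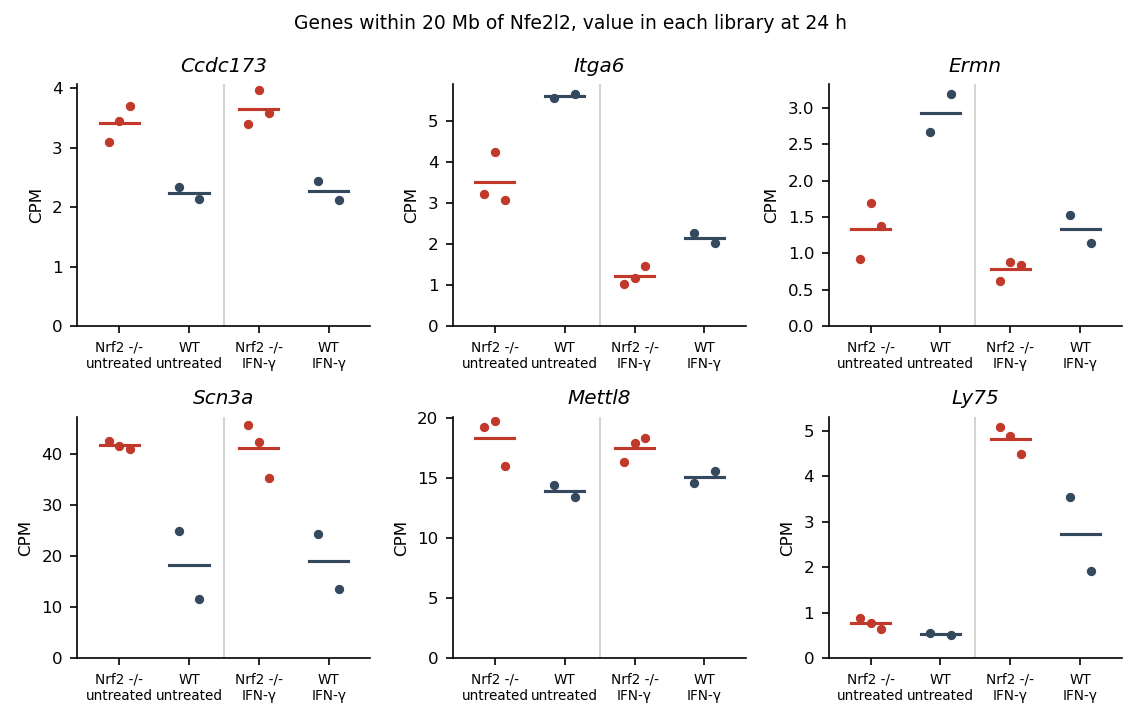
CPM in each library at 24 h of 6 genes within 20 Mb of Nfe2l2; points are libraries, bars the mean of a group, red Nrf2 -/- and dark blue WT, with axes that start at 0. Nrf2 -/- libraries lie above WT in both treatments for Ccdc173, Scn3a, Mettl8 and Ly75, and below WT for Itga6 and Ermn.

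Genes near Nfe2l2 that were called at the other hours had the same signs at 24 h. Averaged over 1, 8 and 48 h, edgeR called 24 genes (16 higher, 8 lower, 0.148% of 16191; 1580 or 9.76% unadjusted), of which 14 beside Nfe2l2 lay within 20 Mb of it. At 24 h, from other libraries, all 14 had the same sign, 11 had an unadjusted p below 0.05 and 8 did not overlap in either treatment. Of the 9 called genes elsewhere 8 had the same sign at 24 h, 3 an unadjusted p below 0.05 and 1, Xist, did not overlap. Scn3a had 1.07 ± 0.17 over the other hours, Mettl8 0.40 ± 0.04, Ccdc173 0.45 ± 0.08, Ly75 0.80 ± 0.13, Itga6 −0.41 ± 0.08 and Ermn −0.58 ± 0.12. The 14 genes were chosen by their calls at the other hours, so their signs do not speak for the whole window. B3galt1, which DESeq2 called at 24 h, was not among them and had 0.09 ± 0.10 over the other hours. Itgav, also in the window, had 0.20 at 24 h and −0.01 over the other hours. The 24 genes became 3 with a term for high Xist, 9 without 2 libraries of 8 h whose labels conflict over genotype, and 127 with DESeq2.

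Whether any genotype difference was particular to 24 h was tested as the effect at 24 h minus its mean at 1, 8 and 48 h. edgeR called 0 of 16191 genes (0%; 769 or 4.75% unadjusted, smallest BH-adjusted p = 0.642), and DESeq2 called 0 (821 unadjusted). Of the 14 genes near Nfe2l2 that were called at the other hours, only Itga6 had an unadjusted p below 0.05 for this difference (−0.34, 95% interval −0.67 to −0.00). Other genes of the window, not called at the other hours, had such a p too. Among them were B3galt1 (0.47, 0.03 to 0.90) and Ppig (0.18, 0.05 to 0.30), named after their values were seen. For Sox5 the difference was 0.46 (0.22 to 0.70, edgeR BH-adjusted p = 0.642). Among the reporters of NRF2 activity it was 0.11 (−0.14 to 0.37) for Hmox1 and 0.01 (−1.04 to 1.07) for Nqo1, and for Gclm 0.16 (0.04 to 0.29, edgeR BH-adjusted p = 1.00).

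Outside chromosome 2 and the sex-linked genes, the genes of smallest p were of varied function; they are named after their values were seen, and neither edgeR nor DESeq2 called any. Efcab5, a calcium-binding EF-hand gene on chromosome 11, held 0.827, 0.885 and 0.987 CPM untreated and 1.12, 1.15 and 1.15 CPM with IFN-γ in Nrf2 -/- cells, against 0.478 and 0.419 CPM untreated and 0.595 and 0.555 CPM with IFN-γ in WT cells. It was higher without overlap at 0.99 ± 0.19 (edgeR BH-adjusted p = 0.396) but had 0.28 ± 0.11 at the other hours. The phosphodiesterase gene Pde1c had 0.25 ± 0.06, the lipase gene Pnlip 0.96 ± 0.23 and the protease gene Adamts9 0.29 ± 0.07. Gamt, the enzyme of the last step of creatine synthesis, held 6.68, 7.19 and 7.19 CPM untreated and 4.10, 3.92 and 4.36 CPM with IFN-γ in Nrf2 -/- cells, against 9.56 and 9.07 CPM untreated and 6.83 and 4.66 CPM with IFN-γ in WT cells, at −0.44 ± 0.11. The choline transporter gene Slc5a7 had 0.53 ± 0.13, with −0.12 ± 0.10 at the other hours (edgeR BH-adjusted p = 0.868 for each of these 5 genes at 24 h).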

How the data were processed

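Gene-level read counts were used as the authors deposited them; the tools named in the submitters' processing notes are STAR, featureCounts, kallisto and edgeR, with no versions or roles. A second deposited table holds estimated counts per transcript, taken here as kallisto's, which were summed per gene and rounded for 1 alternative. Which genome build, annotation and strand setting were used is not stated in these sources; genes that overlap or have near copies (histones, Gbp, H2) are less certain. Symbols and positions came from GENCODE M21 (GRCm38), matched without version for 38872 of 39056 entries.

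Low genes were removed with filterByExpr (4 groups, 10 counts, 15 in total), and the rest scaled by TMM and fitted with edgeR 4.0.16 (robust quasi-likelihood; R 4.3.3, limma 3.58.1) as treatment plus genotype; common dispersion was 0.01. Treatments apart and their interaction used 4 group means, and hours used 16 group means of the untreated and IFN-γ libraries. Adjusted p-values are Benjamini-Hochberg over all genes tested, and calls need one below 0.05. Intervals are 95% t intervals. Fits were tested on simulated data. Within a group, log2 CPM of replicates correlated at 0.9945 to 0.997, and no pair agreed within sampling noise. DESeq2 1.42.0, RLE scaling, other filters, all 50 libraries, kallisto counts, a term for high Xist, an average over treatments and leaving out each library were alternatives; splits by Xist were added after seeing the data.

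The members, gene lists and naming rule were chosen with earlier results of these data known. The rule named Nfe2l2, 7 NRF2 targets, called genes, and in each list up to 4 called members or else 3 of smallest p; others are named as chosen after their values were seen or for their role. Promoter sequences are RefSeq's on GRCm38.p6. A few genes the rule or their role would name are not reported here.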

Additional observations from a re-analysis of the deposited data

How the results depend on the processing

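No called gene changed sign under the alternatives tried, but small list medians did. With all libraries, low-Xist only and high-Xist Nrf2 -/- libraries against WT, the median was 0.08, −0.10 and 0.20 for mitochondrially encoded transcripts, 0.04, −0.04 and 0.09 for matrix genes, −0.06, 0.01 and −0.09 for respiratory chain subunits, and 0.03, 0.14 and −0.03 for cholesterol synthesis. Immediate early genes had 0.06 with all libraries and −0.08 with low-Xist only. The 2 genes called at 24 h became 8 with DESeq2, 4 with no filter on low counts, 6 with all 50 libraries in the fit, 13 with high-Xist Nrf2 -/- libraries against WT, and 1 with kallisto estimated counts or with the average of the 2 treatments. In untreated cells the 1 called gene became 2 with DESeq2, 3 with no filter, 3 with all 50 libraries, 2 with a term for high Xist, 2 in low-Xist and 7 in high-Xist libraries. With IFN-γ the 1 became 20 with DESeq2, 23 with no filter, 7 with all 50 libraries, 2 with a term for high Xist, 2 in low-Xist and 7 in high-Xist libraries. The interaction had 3 genes with no filter. The 24 genes at the other hours became 127 with DESeq2, 46 with no filter, 3 with a term for high Xist, 9 without the conflicting labels and 2 with these counted as WT. Leaving out 1 library gave 1 to 2 genes over both treatments, 1 to 2 untreated, 1 to 100 with IFN-γ, and 0 to 45 in the interaction; the 100 and 45 came without WT IFN-γ replicate 2. The same fits gave 20 to 30 genes at the other hours, but they left out 24 h libraries only, which do not enter that average, so this range says nothing of its stability. The cause of these shifts was not tested. Nfe2l2 kept its call and direction in all 20 alternatives. From stated pairs, no paired analysis was possible because the labels number no replicates. The numbers used here follow library order only. In that order, the untreated and IFN-γ-treated libraries of the same genotype and number stand next to each other. If these share a source, there are fewer sources than libraries. A fit with this number as a term was not run, so whether pairing by order changes the calls was not tested. Whether libraries of the 2 treatments share cultures or animals is not given, and the fit treats them as independent. Genes near 0.25 CPM, such as Nqo1, rest on few reads, and 2 WT libraries per treatment limit precision.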

Other observations

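Eps8l1, an actin-regulator family gene on chromosome 7, was low in just the 2 low-Xist Nrf2 -/- libraries. It held 3.06, 3.40 and 0.113 CPM untreated and 4.20, 3.41 and 0.196 CPM with IFN-γ in Nrf2 -/- cells, against 4.13 and 4.00 CPM untreated and 4.34 and 4.47 CPM with IFN-γ in WT cells, where the low value in each Nrf2 -/- group is replicate 3. The gene was chosen after its values were seen. In low-Xist libraries alone it was called (log2 fold −4.75, edgeR BH-adjusted p = 2.11e-07), and in high-Xist Nrf2 -/- libraries against WT it had −0.26. WT IFN-γ replicate 1 held 52.0 CPM of Jund, a subunit of the AP-1 factor, against 19.8, 17.8 and 20.2 CPM in IFN-γ-treated Nrf2 -/- libraries and 21.5 CPM in WT IFN-γ replicate 2. Hist2h3b stood at 35.6 CPM in that WT library, against 10.1, 8.19 and 8.36 CPM in Nrf2 -/- libraries and 11.3 CPM in the other WT library.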
